A study of Homo sapiens with 4 samples.

Results

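The genes described are 10 members of the thrombin and fibrin system: the 4 protease-activated receptors F2R, F2RL1, F2RL2 and F2RL3, the 3 fibrinogen chains FGA, FGB and FGG, the tissue factor gene F3, and THBD and PROCR of the protein C pathway. They were chosen by symbol, and each gene was read from its brightest annotated probe set, that is, the one with the highest mean signal over the arrays. Of the 10 genes 9 were measured, among 18417 genes with 1 probe set each. F2RL1, the gene of PAR2, was not analysed here. Each measured member had a single probe set among those annotated with 1 symbol, so brightness decided nothing between these. The 1754 probe sets annotated with several symbols were not read for single genes. The genes were picked with earlier results of these arrays known, and F2RL2 and FGB because of their large differences. The values of these 2 genes are therefore a description, with no test.

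MDA-MB-231 is an established human line of basal-like breast cancer. The cells were grown in DMEM with fetal bovine serum and antibiotics and transfected with Lipo2000, the FOXC1 group with a plasmid that encodes FOXC1, a transcription factor of the forkhead family, and the control group with vector. Total RNA of 2 FOXC1 and 2 vector samples, labelled as biological replicates, was hybridised to 4 Affymetrix HuGene-1_0-st-v1 arrays. The sources used here do not say whether transfection was transient or stable, or whether cells were cloned, and p-values measure the spread between these arrays, which may be technical. FOXC1 as a transcript was not analysed here. Of the line's markers, VIM, CD44, EGFR and MSN were bright on every array, while of the 4 markers that such lines carry at low level ESR1 and PGR were dim in both groups, CDH1 was dim in vector cells and near the limit in FOXC1 cells (mean of 280), and ERBB2 was not dim (1303 and 1266 in vector, 1209 and 1134 in FOXC1 cells). Dim means a mean signal at or below 277, the 25th percentile of the probe sets tested.

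Thrombin is the protease that ends the coagulation cascade, which tissue factor starts on cell surfaces. It cuts fibrinogen, a secreted protein built from alpha, beta and gamma chains and made mainly by the liver, into fibrin. It also activates cells through protease-activated receptors (PARs), G protein-coupled receptors whose cut N terminus folds back as the receptor's own ligand. Thrombomodulin and the endothelial protein C receptor turn thrombin from clotting towards the activation of protein C. Tumour cells, MDA-MB-231 among them, are known to carry tissue factor and PAR1. F2RL2, F2R and F2RL1 lie next to each other on chromosome 5, and FGB, FGA and FGG on chromosome 4, whereas F2RL3 lies on chromosome 19.

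F2RL2 and FGB each differed strongly from the other measured genes of their own cluster, and their start regions are shown for that reason beside those of FGA and FGG. RefSeq's table for GRCh38.p14 lists a start region for 8 of the 10 genes. Each region holds 300 bases in the direction of the gene, 250 before the start and 50 from it on. Capitals mark a match to a motif of those searched on both strands.
F2RL2, chr5:76623354-76623653, minus strand: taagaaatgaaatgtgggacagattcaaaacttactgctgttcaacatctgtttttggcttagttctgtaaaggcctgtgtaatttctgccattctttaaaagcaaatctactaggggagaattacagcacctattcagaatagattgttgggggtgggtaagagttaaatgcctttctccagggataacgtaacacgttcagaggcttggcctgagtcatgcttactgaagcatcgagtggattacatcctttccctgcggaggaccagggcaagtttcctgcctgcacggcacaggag
FGB, chr4:154562730-154563029, plus strand: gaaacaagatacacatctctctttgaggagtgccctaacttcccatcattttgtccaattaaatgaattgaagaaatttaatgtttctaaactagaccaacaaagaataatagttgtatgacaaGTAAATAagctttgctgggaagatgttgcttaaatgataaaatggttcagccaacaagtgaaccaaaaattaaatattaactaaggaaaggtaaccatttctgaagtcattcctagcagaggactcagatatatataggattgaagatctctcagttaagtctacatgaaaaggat
FGA, chr4:154590693-154590992, minus strand: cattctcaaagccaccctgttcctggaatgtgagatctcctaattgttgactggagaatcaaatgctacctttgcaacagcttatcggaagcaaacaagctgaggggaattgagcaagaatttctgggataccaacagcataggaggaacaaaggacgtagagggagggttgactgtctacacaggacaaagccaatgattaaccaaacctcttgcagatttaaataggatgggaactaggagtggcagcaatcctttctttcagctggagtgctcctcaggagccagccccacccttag
FGG, chr4:154612607-154612906, minus strand: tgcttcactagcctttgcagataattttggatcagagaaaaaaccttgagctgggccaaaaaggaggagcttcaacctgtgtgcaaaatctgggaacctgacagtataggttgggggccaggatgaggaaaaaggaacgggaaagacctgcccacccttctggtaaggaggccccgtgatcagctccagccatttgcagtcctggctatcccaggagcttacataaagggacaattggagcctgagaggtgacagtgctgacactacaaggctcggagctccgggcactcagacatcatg
The motifs were GTAAACA and GTAAATA, 7-base forms of the site that forkhead factors bind, the palindromic HNF1 site and the C/EBP site TTGCNNCAA. Matches of different motifs may overlap, and in the regions shown none did. Among these 4 regions, FGB alone held a match, GTAAATA on the gene's own strand, whose first base lay at -126 from the start. Of 35116 start regions listed for human genes, 2.67% hold GTAAATA and 5.97% either forkhead form. The C/EBP form is held by 1.98% and the full HNF1 form by only 2 regions. A search for exact letters thus could hardly find HNF1, and its lack of matches says nothing about looser HNF1 or C/EBP sites. The regions of F2RL1, F2RL3, F3 and PROCR held no match, and the second region listed for FGB overlaps the first and holds the same match. A match describes letters and not a bound site, and these arrays measured no binding.

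The regions also differed in base composition. The FGB region had 0 CpG dinucleotides and a GC content of 32.7%, and the FGA, FGG and F2RL2 regions had 2, 4 and 5 CpGs with GC contents of 47.0%, 52.0% and 44.7%. Those 4 regions lay below the median of 14 CpGs over all listed regions. F3 stood at the other end, with 38 CpGs and 77.3% GC, above 90.1% of regions in its CpG count.

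The arrays were read as linear PLIER signal, and differences are given as FOXC1 minus vector on the scale of log2(signal + 16), with the standard error (SE) of the limma fit. Folds are taken from these differences and are not ratios of the mean signals. A gene is called where its adjusted p (limma, Benjamini-Hochberg over 21214 probe sets) is under 0.05. Array medians lay between 489 and 512, the number of arrays limits the precision, and the median difference over all genes was 0.03. In this comparison 31.4% of all 18417 genes were called, 15.9% higher and 15.5% lower. Higher calls made up 50.6% of all calls, but 59.6% when arrays were centred on the median of the named probe sets and 33.9% when they were centred on the median of all rows, a setting chosen after seeing the data. Small differences thus depend on the scaling. Of the 7 measured members other than F2RL2 and FGB, F3, PROCR and FGG rose, F2R and THBD fell, and F2RL3 and FGA were not called. Both FOXC1 arrays lay on the same side of both vector arrays for all 9 measured members, and 63.5% of all genes show such separation.

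**Figure D1:**
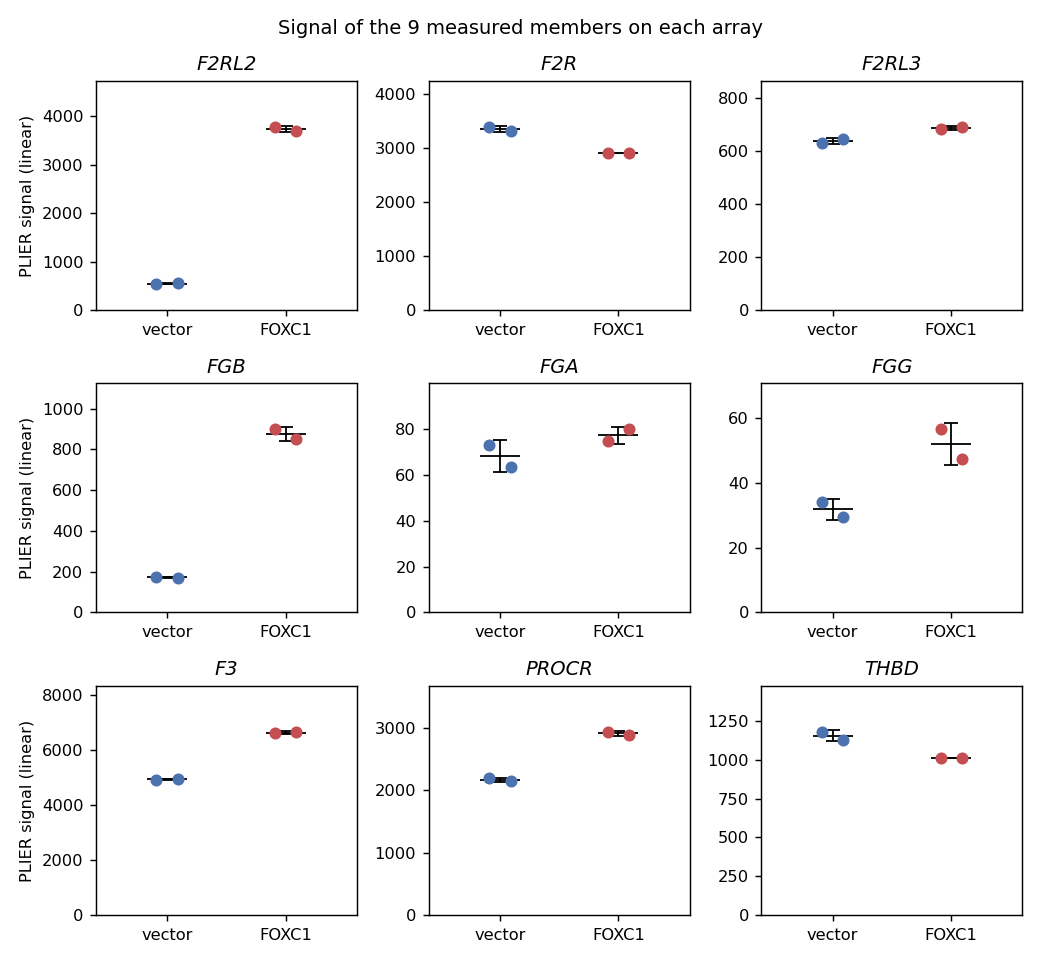
Linear PLIER signal (vertical axis, from 0, scaled for each gene) of the 9 measured members on each array. Points are single arrays, and bars are the mean and SD of 2 vector or 2 FOXC1 arrays. F2RL2 and FGB show the widest gaps, with vector arrays at 542 and 547 against 3781 and 3700 for F2RL2.

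The receptors went in different directions. F2RL2 encodes PAR3, which thrombin cuts and which is thought to act largely as a cofactor for other PARs. Its signal was 542 and 547 on the vector arrays and 3781 and 3700 on the FOXC1 arrays. The groups lay far apart and the arrays of each group close together. The mean went from 545 ± 3.49 to 3741 ± 57.5 (SD, n = 2 each), which is 6.70-fold higher in FOXC1 cells (log2 2.74 ± 0.05 SE), the 9th highest of all 18417 differences. In such bulk RNA, more cells with a transcript and more transcript per cell cannot be told apart.

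F2R encodes PAR1, the main thrombin receptor of most human cells. Its signal was 3397 and 3312 in vector cells and 2914 and 2917 in FOXC1 cells. Both FOXC1 arrays were lower than both vector arrays, by a small margin against the signal itself. F2R fell 1.15-fold (log2 -0.20 ± 0.04 SE, limma adjusted p = 0.000154), and 23.2% of all genes had a larger absolute difference.

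F2RL3 encodes PAR4, the second thrombin receptor of platelets. Its signals were 629 and 646 in vector cells and 683 and 691 in FOXC1 cells, the latter both higher. The difference was not called (log2 0.11 ± 0.07 SE, limma adjusted p = 0.249), and its 95% interval ran from -0.03 to 0.24.

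Set against F2R on the same array, F2RL2 shifted by more than its own difference because F2R moved the other way. The log2 ratio of F2RL2 to F2R was -2.61 and -2.56 on the vector arrays and 0.37 and 0.34 on the FOXC1 arrays, a shift of 2.95. The ratio to F2RL3 went from -0.21 and -0.23 to 2.44 and 2.39. Such ratios compare changes, since levels of different probe sets are not on a common scale. A comparison of 2 against 2 arrays cannot give an exact two-sided permutation p below 0.333, and the ratios were not tested.

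The genes around the receptor cluster showed no difference of that size. F2RL2 lies within the bounds of IQGAP2, a Rac and Cdc42 scaffold gene, on the opposite strand. IQGAP2 had signals of 772 and 742 in vector and 592 and 543 in FOXC1 cells. It thus fell 1.33-fold (log2 -0.41 ± 0.07 SE, limma adjusted p = 9.23e-05) while the gene nested in it was higher. Of the 12 neighbours, 6 on each side, 1 rose and 3 fell, where 15.9% of all genes rose and 15.5% fell. POC5 rose (log2 0.15) and IQGAP2, PDE8B and WDR41 fell, and the 12 differences spanned -0.42 to 0.15 with a median of -0.10. PDE8B was dim in both groups. The calls of PDE8B and WDR41 were lost without vector replicate 1 (adjusted p = 0.12 and 0.292), and that of POC5 without a variance trend (0.0703).

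**Figure D2:**
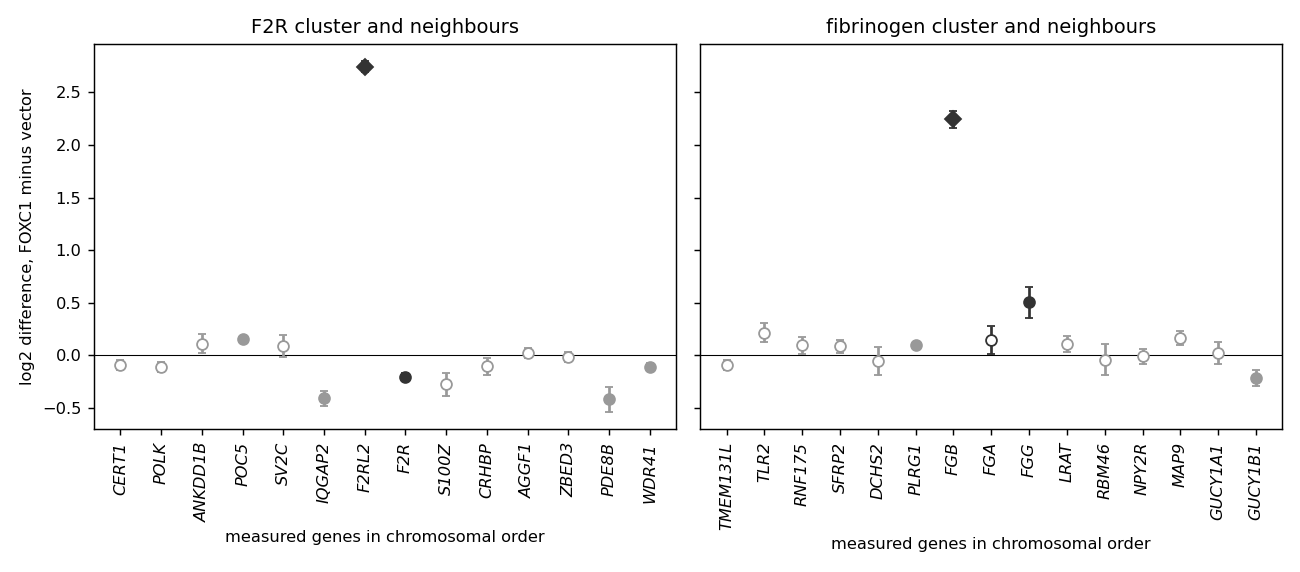
Log2 difference, FOXC1 minus vector (vertical axis, bars are the SE of the fit), of the measured genes in and around both clusters in chromosomal order. Black symbols are cluster genes, grey symbols are neighbours, filled circles passed an adjusted p of 0.05 in limma, and diamonds are F2RL2 and FGB, which were not tested. Only the diamonds lie above 0.6 among the genes drawn.

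The fibrinogen chains were likewise uneven. FGB encodes the beta chain, which is often described as limiting for fibrinogen assembly in liver cells. Its signal was 175 and 170 on the vector arrays, where it was dim, and 899 and 853 on the FOXC1 arrays. Every FOXC1 value exceeded every vector value by several fold. The mean went from 172 ± 3.27 to 876 ± 32.4 (SD, n = 2 each). With the offset of 16, FGB was 4.73-fold higher (log2 2.24 ± 0.08 SE), the 13th highest difference of all genes. An offset of 1 in place of 16 gave 5.06-fold, and 64 gave 3.98-fold.

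FGG encodes the gamma chain, which carries sites for integrins and for cross-linking. Its signal was 34.0 and 29.5 in vector cells and 56.5 and 47.3 in FOXC1 cells. The groups did not overlap, but all 4 values were far under the limit for dim probe sets. FGG rose 1.42-fold (log2 0.51 ± 0.15 SE, limma adjusted p = 0.0118). It did not pass without vector replicate 2 (log2 0.44, adjusted p = 0.0618), without FOXC1 replicate 1 (log2 0.41, 0.145) and in a fit of all rows (0.0665).

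FGA encodes the alpha chain, from which thrombin first cuts a fibrinopeptide. Its signals of 73.1 and 63.3 in vector and 74.7 and 79.8 in FOXC1 cells nearly met and were dim throughout. FGA was not called (log2 0.15 ± 0.13 SE, limma adjusted p = 0.433), with a 95% interval from -0.12 to 0.42.

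Within the fibrinogen cluster, the log2 ratio of FGB to FGA was 1.10 and 1.23 on the vector arrays and 3.33 and 3.18 on the FOXC1 arrays, and that of FGB to FGG went from 1.93 and 2.03 to 3.66 and 3.78. Both ratios thus shifted by well over the gap between arrays of a group, by 2.09 and 1.74. The ratio of FGG to FGA went from -0.83 and -0.80 to -0.32 and -0.60, a shift of 0.36 (0.51 and 0.18 with offsets of 1 and 64). The plot of cluster genes and neighbours shows no difference of that size on the flanks of this cluster. Of its 12 neighbours 1 rose and 1 fell, where 15.9% of all genes rose and 15.5% fell. PLRG1, a splicing factor gene beside FGB, rose 1.07-fold, and GUCY1B1, a guanylate cyclase subunit, fell 1.16-fold. Their calls were lost without vector replicate 2 (adjusted p = 0.116 and 0.274), and that of GUCY1B1 also without vector replicate 1 (0.101) and without FOXC1 replicate 2 (0.106). The 12 differences spanned -0.22 to 0.21.

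Tissue factor, F3, binds factor VII and starts coagulation. Its signal was 4915 and 4956 in vector cells and 6606 and 6668 in FOXC1 cells. The gap between groups was many times that between arrays of a group. F3 rose 1.34-fold, from 4936 ± 29.2 to 6637 ± 43.7 (SD, n = 2 each; log2 0.43 ± 0.03 SE, limma adjusted p = 1.45e-10), and 5.65% of all genes had a larger absolute difference.

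PROCR, the endothelial protein C receptor and also a marker of some mammary stem cells, had signals of 2196 and 2143 in vector cells and 2942 and 2890 in FOXC1 cells. It rose 1.34-fold (log2 0.42 ± 0.04 SE, limma adjusted p = 2.49e-08), the same fold as F3. THBD, thrombomodulin, the cofactor with which thrombin activates protein C, had signals of 1182 and 1131 in vector and 1013 and 1013 in FOXC1 cells. Both receptors of the protein C pathway were thus measured at clear signal and moved in opposite directions. THBD fell 1.14-fold (log2 -0.19 ± 0.05 SE, limma adjusted p = 0.012), a call lost without vector replicate 1 (log2 -0.16, adjusted p = 0.197) and without a variance trend (0.053). The log2 ratio of PROCR to THBD was 0.89 and 0.91 on the vector arrays and 1.52 and 1.50 on the FOXC1 arrays.

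Other genes of the system were counted in 7 lists that hold 109 measured genes. Of these 14 rose and 27 fell, or 12.8% and 24.8%, against 15.9% and 15.5% of all genes. Without vector replicate 2 the rises numbered 8. The falls were uneven over the lists. PAR signalling held 11 of the 27 and the regulators of fibrinogen transcription 6, and each other list held 1 to 3. The plot of the pathway lists shows that most genes lay within 0.3 of 0.

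**Figure D3:**
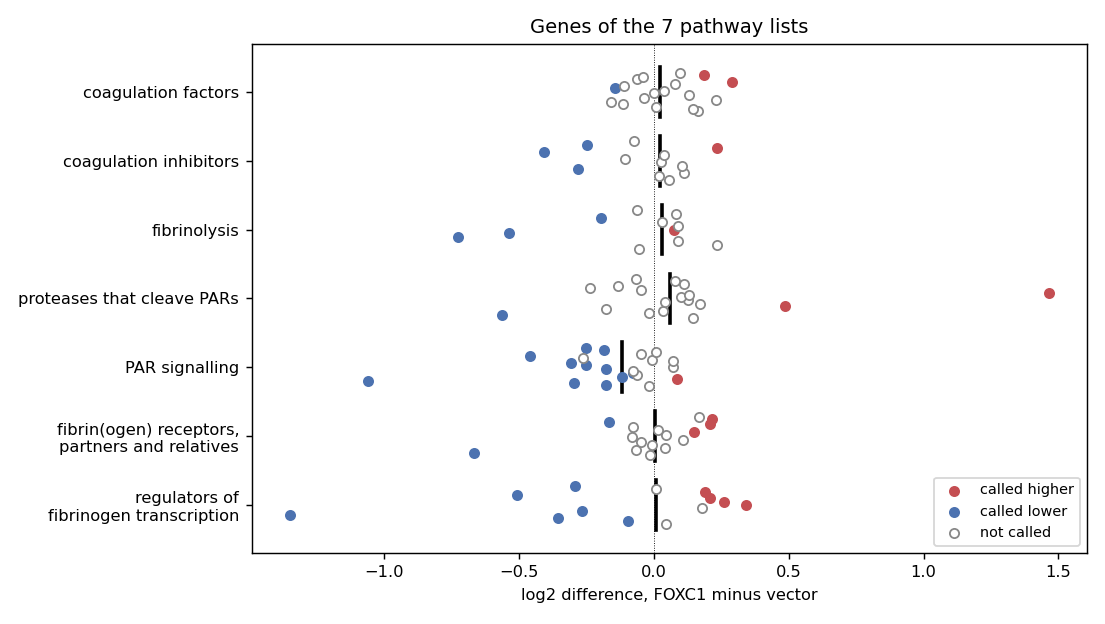
Log2 difference, FOXC1 minus vector (horizontal axis), of each measured gene in 7 pathway lists. Red points were called higher, blue points lower and open points were not called (adjusted p of 0.05 in limma), and black bars are list medians. MMP1 (1.47) and FOXA1 (-1.35) lie farthest out.

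Of 18 genes of the coagulation factors and their maturation 2 rose and 1 fell (11.1% and 5.56%, beside 15.9% and 15.5% of all genes). The other 15 did not pass, and the median log2 difference was 0.02. Of the 18 genes 8 were dim in both groups. None of the 3 called genes is a clotting factor. LMAN1, a cargo receptor that carries factors V and VIII out of the endoplasmic reticulum, rose 1.22-fold, and VKORC1L1, a vitamin K reductase, rose 1.14-fold. GGCX, the carboxylase that vitamin K serves, fell 1.10-fold. The calls of VKORC1L1 (adjusted p = 0.0669) and GGCX (0.0757) were lost without a variance trend, and that of GGCX also without vector replicate 1 (0.0793) and without vector replicate 2 (0.0973). Prothrombin, F2, was dim, at 178 and 199 in vector and 209 and 239 in FOXC1 cells, and was not called (log2 0.23 ± 0.11 SE), although it passed without FOXC1 replicate 1 (log2 0.32, adjusted p = 0.0468). F7, the ligand of tissue factor, was at 715 and 722 against 770 and 804 and was not called either (log2 0.13 ± 0.06 SE).

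Of 12 coagulation inhibitors 3 fell and 1 rose (25% and 8.33%, beside 15.5% and 15.9% of all genes). TFPI, the inhibitor of the complex of tissue factor and factor VII, had signals of 3597 and 3711 in vector and 3034 and 3116 in FOXC1 cells and fell 1.19-fold (log2 -0.25 ± 0.04 SE). It thus moved against F3 on the same arrays. PROS1, the protein S cofactor, fell 1.21-fold, though its probes may also bind the transcript of a near-identical pseudogene. SERPIND1, heparin cofactor II, fell 1.33-fold from a dim signal, which did not pass without vector replicate 1 (adjusted p = 0.0558). SERPINE2, a thrombin inhibitor bound to cell matrix, rose 1.17-fold.

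Among the 11 measured fibrinolysis genes, lower calls numbered 3 (27.3%, where all genes had 15.5%). A higher call was made for 1 gene (9.09%, where all genes had 15.9%). PLAT, the tissue plasminogen activator, had signals of 6418 and 6349 in vector and 3914 and 3797 in FOXC1 cells and fell 1.65-fold (log2 -0.73 ± 0.03 SE, limma adjusted p = 7.06e-14). PLAU, urokinase, fell 1.45-fold, from 6049 and 6117 to 4302 and 4076. Both plasminogen activators were thus lower on each FOXC1 array. S100A10, which presents plasminogen at the cell surface, fell 1.14-fold. The urokinase receptor PLAUR rose 1.05-fold, a call lost in 7 of 14 alternatives, among them each of the fits without vector replicate 1, vector replicate 2 or FOXC1 replicate 1 (adjusted p = 0.204, 0.164 and 0.122).

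Among 18 measured proteases known to cut PARs, 2 rose and 1 fell (11.1% and 5.56%, beside 15.9% and 15.5% of all genes). MMP1, a collagenase that can also cut PAR1, had signals of 4878 and 4685 in vector and 13306 and 13175 in FOXC1 cells and rose 2.76-fold (log2 1.47 ± 0.03 SE, limma adjusted p = 5.64e-20). Its rise stood beside the small fall of F2R. GZMK, a granzyme, rose 1.40-fold at a dim signal between 35.0 and 60.2, and it did not pass without vector replicate 1, without FOXC1 replicate 1 and without FOXC1 replicate 2 (adjusted p from 0.0615 to 0.079). CTSS, cathepsin S, fell 1.48-fold. The matriptase gene ST14 was not called (log2 -0.06 ± 0.09 SE).

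PAR signalling genes fell in 11 of 21 and rose in 1, a share of 52.4% lower against 15.5% of all genes, with a median log2 difference of -0.12. The difference in shares was not tested. Only 2 of the 21 genes were dim in both groups, and small differences are called more readily at bright signals. ARRB1, the beta-arrestin that binds activated receptors and ends their G protein signal, had signals of 2320 and 2353 in vector and 1178 and 1050 in FOXC1 cells. It fell 2.09-fold (log2 -1.06 ± 0.05 SE, limma adjusted p = 1.26e-12), the largest fall of the list. PRKCA, a protein kinase C, fell 1.38-fold, and PLCB1, a phospholipase C that makes its activator, fell 1.24-fold at a dim signal. The other 8 falls were smaller than 1.25-fold and were in ARHGEF12 and ARHGEF11, the exchange factors between G12 family proteins and RhoA, GNA12, the kinase ROCK2, the receptor kinases GRK2 and GRK5, the sorting protein SNX1 and GNAI2. Without vector replicate 1, ARHGEF11, GRK2, GNA12 and GNAI2 did not pass (adjusted p = 0.125, 0.0579, 0.0944 and 0.236). Without vector replicate 2 the first 3 of these did not pass (0.075, 0.202 and 0.108), nor did GNA12 and GNAI2 without FOXC1 replicate 2 (0.165 and 0.445). GNA11, a Gq family subunit, was the gene that rose, 1.06-fold, and its call was lost when any single array was left out (adjusted p from 0.0522 to 0.373), as was that of PLCB1 (0.0756 to 0.257). RHOA itself was not called (log2 -0.05 ± 0.02 SE), but passed as lower with quantile normalization (adjusted p = 0.00643) and centring on all rows (0.0138). Falls in this list numbered 6 without vector replicate 1, 7 without vector replicate 2, without a variance trend and in a fit of all rows, and 14 with quantile normalization or centring on all rows.

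Genes for fibrin and fibrinogen receptors, partners and relatives rose in 3 of 16 and fell in 2 (18.75% and 12.5%, beside 15.9% and 15.5% of all genes). The chains of the integrin alpha-v beta-3, which binds fibrinogen, were both called higher, ITGAV 1.11-fold and ITGB3 1.16-fold. The call of ITGAV was lost without vector replicate 2 (adjusted p = 0.118), and that of ITGB3 without vector replicate 1 (0.128), without vector replicate 2 (0.152) and without FOXC1 replicate 1 (0.0568). THBS1, a matrix protein that binds fibrinogen, rose 1.16-fold, while FBLN1, fibulin 1, fell 1.59-fold and TGM2, tissue transglutaminase, fell 1.12-fold. The fibrinogen-like genes FGL1 and FGL2 were dim in both groups and were not called (log2 -0.07 ± 0.15 SE and 0.04 ± 0.12 SE).

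Of 13 measured genes known to control fibrinogen transcription 4 rose and 6 fell (30.8% and 46.2%, beside 15.9% and 15.5% of all genes), a difference in shares that was not tested. The 4 rises were all in the interleukin-6 pathway, which drives fibrinogen in the liver. These 4 are also the only measured genes of the list that are not transcription factors. The part of this pathway in the value of FGB was not tested. IL6 had signals of 2490 and 2428 in vector and 3170 and 3066 in FOXC1 cells (1.27-fold higher, log2 0.34 ± 0.04 SE), and its receptor chains IL6R and IL6ST and its feedback inhibitor SOCS3 rose 1.20-fold, 1.16-fold and 1.14-fold. IL6R and SOCS3 did not pass without vector replicate 2 (adjusted p = 0.104 and 0.182). The 6 falls were all in transcription factors. FOXA1 fell 2.55-fold, to a dim signal in FOXC1 cells (mean of 205). PPARA fell 1.42-fold, CEBPD 1.28-fold, USF1 1.23-fold, FOXA2 1.20-fold and CEBPB 1.07-fold. The call of CEBPB was lost in 8 of 14 alternatives. Its log2 difference lay between -0.12 and -0.07 when single arrays were left out. STAT3, CEBPA and FOXA3 were not called (log2 0.01 ± 0.03 SE for STAT3).

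Markers of liver and vessel cells, which normally make many of these proteins, fell or were not called. Of 19 hepatocyte markers 0 rose in limma (0 also at an unadjusted p under 0.05) and 2 fell (10.5%, beside 15.5% of all genes). Their median log2 difference was 0.04, beside 0.03 over all genes. Their summed signal was 9328 to 9487 on the vector arrays and 8597 to 8656 on the FOXC1 arrays. C3 made up much of that sum, at 5564 and 5445 in vector and 4783 and 4715 in FOXC1 cells. The markers dim in both groups numbered 13, among them TTR, AHSG, APOA2 and APOB. No detection calls were used, so a dim marker cannot be read as absent. SERPINA1, a liver-secreted protease inhibitor that was dim in both groups, fell from 237 and 221 to 22.2 and 24.1, opposite in direction to FGB. Its log2 difference of -2.65 lay between -3.25 and -1.75 over the alternatives. C3 fell 1.16-fold. Of 10 endothelial markers 4 fell (40%, beside 15.5% of all genes) and 0 rose in limma (0 also at an unadjusted p under 0.05). Their median log2 difference was -0.05, and their summed signal was 10197 to 10208 in vector and 8168 to 8442 in FOXC1 cells. PECAM1 fell 3.15-fold, to a dim signal in FOXC1 cells (mean of 247). ROBO4 fell 1.49-fold, TIE1 1.28-fold and ESAM 1.25-fold. The call of TIE1 was lost in 3 of 14 alternatives, and without vector replicate 1 its log2 difference was -0.16 in place of -0.35. CDH5, CLDN5 and PLVAP were not dim and were not called (log2 -0.02, 0.03 and 0.05). TEK, ERG and EMCN were dim and were not called either. Of 7 megakaryocyte and platelet markers PF4 rose 1.16-fold and the others were not called. PF4 did not pass without vector replicate 1, vector replicate 2 or FOXC1 replicate 2 (adjusted p = 0.131, 0.204 and 0.206). The part of these markers in the values of FGB, F2RL2, THBD and PROCR was not tested.

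**Figure D4:**
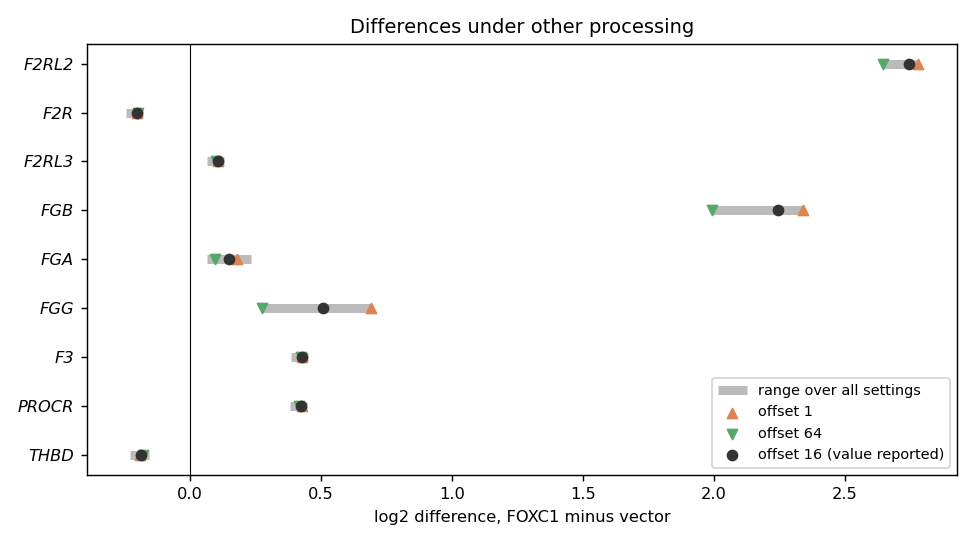
Log2 difference, FOXC1 minus vector (horizontal axis), of the 9 measured members under 3 offsets added before log2 (symbols) and over all settings tried (grey bars). No member changed sign, and FGB and FGG moved most, with FGG between 0.27 and 0.69.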

How the data were processed

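RNA of 4 samples was measured on 4 arrays. Per the labels, the authors summarised probes with PLIER (gene level, Affymetrix Expression Console); the sources used here give no versions, background step or normalization. The deposited values are linear intensity (PLIER signal), used as deposited. Of 33297 probe sets 21214 carried a gene symbol in the platform annotation, 19460 of them 1 symbol, and old symbols were updated through gene identifiers. No detection calls were used, and the number of arrays limits the precision.

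An offset of 16 was added before taking log2, since PLIER signal nears 0 for dim probe sets, which shrinks folds of dim genes. All named probe sets entered a fit in R 4.3.3 with limma 3.58.1 (lmFit, eBayes with trend, two-sided, 2 residual and 18.1 prior degrees of freedom), with Benjamini-Hochberg adjustment. In simulated data for this comparison (21214 probe sets, 50 changes of each size) 38% of log2 changes of 0.25, 88% of 0.5 and 100% of 1 were recovered. Far fewer probe sets changed there than were called in the real data, which makes the adjustment stricter. These shares thus do not carry over directly to the real data. Members and lists were chosen with earlier results of these data known. All members, up to 3 called genes of each list in each direction with the largest differences, and the 6 measured protein-coding neighbours on each side of a cluster are named; other genes were named after their values were seen. Same-numbered arrays did not deviate together (correlation -0.01). Start regions are RefSeq's. Alternatives were offsets of 1 and 64, a filter at the 25th percentile, quantile normalization, median centring, variance moderation without trend or robust, a replicate block, all rows, and leaving out each array.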

Additional observations from a re-analysis of the deposited data

How the results depend on the processing

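Of 58 other named genes that were called, 32 kept their call under all alternatives. Under the 14 alternatives F3, PROCR and F2R kept their calls, FGG and THBD lost theirs in 3 and 2, and F2RL3 and FGA were never called; no named gene's call reversed. F2RL2 stayed between 6.25-fold and 6.86-fold and FGB between 3.98-fold and 5.06-fold.

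The numbers of all genes called, 2925 higher and 2852 lower, were 1461 and 1790 without a variance trend and 3758 and 2543 with centring on the median of the named probe sets, with 1858 higher in a fit of all rows and 1739 higher when arrays were centred on the median of all rows, a setting chosen after seeing the data. Leaving out arrays gave 1913 to 2951 higher and 2059 to 3142 lower. Of the other members 2 were called lower, and 1 without a variance trend; leaving out arrays gave 2 to 3 higher and 1 to 2 lower. In the pathway lists 14 were higher, and 9 without a trend, in all rows or with that centring; leaving out arrays gave 8 to 14 higher and 19 to 29 lower. Over all alternatives, rises and falls ranged over 1 to 3 and 0 to 3 for coagulation factors, 0 to 1 and 3 to 4 for fibrinolysis, 1 to 4 and 1 to 4 for proteases, 0 to 1 and 6 to 14 for PAR signalling, 1 to 4 and 1 to 3 for fibrinogen partners, and 2 to 4 and 5 to 6 for fibrinogen regulators. Among the neighbours 2 were higher and 4 lower, against 0 and 2 without a trend, 1 and 1 in all rows, 0 higher with that centring and 4 higher with the replicate block; leaving out arrays gave 1 to 3 higher and 1 to 7 lower. The same-numbered arrays share only a number, and with the block 3339 genes were called higher and 3099 lower.

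The shift of the F2RL2 to F2R ratio, 2.95, was 2.98 with an offset of 1 and 2.84 with 64, that of F2RL2 to F2RL3 (2.64) was 2.67 and 2.54, and that of FGG to FGA (0.36) was 0.51 and 0.18. The shift of FGB to FGA (2.09) was 1.90 with an offset of 64, and that of FGB to FGG (1.74) was 1.65 with an offset of 1. Folds of dim genes depend on the offset; other causes were not tested. FGA and FGG could not be fitted above the 25th percentile, where they are left out.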
